A study of Mus musculus with 22 samples.

Results

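What LPS changed in macrophages that also received IL-10 was measured at 6 h by comparing 2 libraries of LPS with IL-10 and 2 libraries of IL-10 alone, which are 4 of the 22 libraries of the series. The test took 12817 of the 38293 genes, those that reached 10 normalized reads in 2 or more of the 14 libraries of the 6 h and 12 h table, and 12016 of them did so in 2 or more of the 4 compared libraries. A normalized read is a sequencing read divided by the size factor of its library. All cells were bone marrow-derived macrophages from Il10-/- mice on a C57BL/6 background aged 6 to 12 weeks, grown for 7 to 8 days with 10% fetal calf serum and 30% L929 cell supernatant, a source of the macrophage growth factor CSF1. The cells received LPS (lipopolysaccharide) and recombinant IL-10, each at 100 ng/ml. For comparison, the same table holds LPS alone at 6 h and an untreated control (2 libraries each), and the same treatments at 12 h. A separately normalized table holds 3 h. The deleted Il10 allele, the harvest time of that untreated control and the origin of the replicates (separate cultures or mice) are not in the labels, so p-values measure the spread between these libraries, which may be technical.

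LPS, a component of the outer membrane of Gram-negative bacteria, is sensed by Toll-like receptor 4. The receptor signals through MYD88 to NF-kappa-B and MAP kinases and through TRIF to IRF3 and interferon beta, which then acts back on the cell through its own receptor. IL-10 binds the receptor chains IL10RA and IL10RB and activates STAT3, and in macrophages it is known for lowering the output of inflammatory cytokines, with SOCS3 and the IL-1 receptor antagonist among its induced products. The cells of both groups come from mice deficient in IL-10, and recombinant IL-10 was added to both.

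In cells given LPS with IL-10, LPS still raised nitric oxide synthase, interferon-induced genes, chemokines, acute-phase proteins and most genes of the IL-10 and STAT3 response, and lowered genes of DNA replication, the iron exporter ferroportin and the plasminogen activator urokinase. On the scale of the test (log2 of the normalized value plus 1, which understates changes of low genes) the largest rise was in Nos2, the inducible nitric oxide synthase (chr11:78920787-78960254, GRCm38), which had 63205 and 44117 normalized reads in LPS with IL-10, against 11.4 and 10.6 in IL-10 alone. Both libraries of each group lay close together and far from the other group, and the log2 change was 12.10 ± 1.16 (SE; limma adjusted p = 1.9e-05). This SE pools the spread of all 7 groups, and without the 12 h libraries it was 0.26. The promoters of 4 of the largest rises are shown because each holds, as letters, a motif bound by factors downstream of LPS. Each is 250 bases before to 50 after the RefSeq gene start (GRCm38.p6), written 5′ to 3′ on the gene's strand, and capitals mark the interferon-stimulated response element (GAAA, any 2 bases, GAAA, on either strand) in Il19, Edn1 and Ifi205 and the kappa-B motif (GGG, any 2 bases, TTTCC, on either strand) in Steap4.
Il19, minus strand, chr1:130940066-130940365: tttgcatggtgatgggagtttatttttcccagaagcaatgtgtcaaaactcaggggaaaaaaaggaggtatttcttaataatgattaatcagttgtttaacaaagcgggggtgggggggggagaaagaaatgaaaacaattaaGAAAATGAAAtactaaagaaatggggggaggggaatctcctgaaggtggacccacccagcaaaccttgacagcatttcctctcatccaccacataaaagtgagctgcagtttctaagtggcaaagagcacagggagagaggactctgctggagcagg
Edn1, plus strand, chr13:42301226-42301525: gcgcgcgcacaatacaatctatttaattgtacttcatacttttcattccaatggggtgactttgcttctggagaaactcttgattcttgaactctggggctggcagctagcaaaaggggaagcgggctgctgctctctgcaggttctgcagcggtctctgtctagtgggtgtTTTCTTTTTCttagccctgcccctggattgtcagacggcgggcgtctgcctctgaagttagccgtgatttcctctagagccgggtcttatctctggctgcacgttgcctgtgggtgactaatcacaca
Steap4, plus strand, chr5:7960222-7960521: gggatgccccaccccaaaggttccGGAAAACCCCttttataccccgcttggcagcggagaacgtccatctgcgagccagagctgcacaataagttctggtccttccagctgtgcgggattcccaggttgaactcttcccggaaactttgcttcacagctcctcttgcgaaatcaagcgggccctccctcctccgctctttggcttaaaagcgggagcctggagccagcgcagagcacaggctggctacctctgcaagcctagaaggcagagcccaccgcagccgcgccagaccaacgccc
Ifi205, minus strand, chr1:174031706-174032005: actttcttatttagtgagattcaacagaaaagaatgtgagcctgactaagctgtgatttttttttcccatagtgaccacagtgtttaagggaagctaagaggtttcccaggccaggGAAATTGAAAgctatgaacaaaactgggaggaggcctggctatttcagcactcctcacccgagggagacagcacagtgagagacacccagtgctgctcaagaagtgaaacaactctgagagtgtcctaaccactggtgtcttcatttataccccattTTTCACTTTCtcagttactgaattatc

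The element begins at position -107 from the start in Il19, at -78 in Edn1, and at -134 and 23 in Ifi205, and the kappa-B motif begins at -226 in Steap4. Il19 encodes a cytokine of the IL-10 family, Edn1 the vasoconstrictor precursor endothelin-1, Steap4 a metalloreductase, and Ifi205 an interferon-inducible protein of the HIN-200 family. A promoter sequence was at hand for 35 of the 57 genes considered here (the 24 largest rises and falls and a panel of 36 inflammatory genes), of which 9 held 1 of these motifs and 26 held neither. Among genes that rose at least 8-fold, 15.5% of 431 promoters held the interferon-stimulated response element and 3.71% the kappa-B motif. Among those that fell at least 8-fold, the shares were 0.508% and 0% of 197 promoters, against 3.39% and 1.68% of all 9401 promoters of tested genes. A match is a description of letters in this window and not a binding site, and a missing match says only that these letters are not there.

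The compared libraries held 31772075 and 25082392 reads for LPS with IL-10, against 18284925 and 25021931 for IL-10 alone, with 1 read equal to 0.833 and 1.13 normalized reads, against 0.815 and 0.588. The normalized totals were 26461478 and 28461924 for LPS with IL-10, against 14905194 and 14723518 for IL-10 alone, so both libraries with LPS hold more normalized reads than both without it. All 10 macrophage markers were present, with a summed level of 394400 to 430800 normalized reads in LPS with IL-10, against 337800 to 402400 in IL-10 alone. Of the markers of other cells, the 7 B cell genes summed to 136 to 164, against 789 to 834, with Cd79a at 0 with LPS. The 8 dendritic cell genes summed to 6268 to 7927, against 2035 to 2533, with 0 of them at 0 in either group. The 8 T cell genes summed to 135 to 184, against 55.4 to 67.1, with Cd3g, Trac and Trbc1 at 0 in both groups. The 9 neutrophil genes summed to 730 to 874, against 224 to 253, the 8 fibroblast genes to 72.5 to 82.8, against 3.53 to 4.08, and the 6 endothelial genes to 768 to 885, against 197 to 221. These sums rest on few genes. Only 3 fibroblast genes reached 10 normalized reads with LPS, against 0 in IL-10 alone, and Col1a1, Col3a1 and Thy1 were at 0 in both groups. For endothelial genes 3 reached it in each group, with Emcn at 0 in both. For dendritic cell genes 4 reached it with LPS, against 2. The part of such cells in the results was not tested, and in bulk RNA fewer cells of a type and less RNA per cell cannot be told apart. Reads at the Il10 locus numbered 1058 and 1456 normalized reads in LPS with IL-10, against 496 and 370 in IL-10 alone. Since reads may fall outside the deleted part, this checks neither the genotype nor the labels.

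LPS changed 6985 of the 12817 genes in the presence of IL-10 (54.5%; limma on log2 of the normalized value plus 1, adjusted p under 0.05), of which 3610 rose (28.2%) and 3375 fell (26.3%). The counts of gene lists below are to be read beside these shares of 28.2% and 26.3%. Rises reached further than falls. At least 8-fold changes numbered 631 rises and 289 falls, at least 32-fold changes 199 rises and 12 falls, and at least 128-fold changes 76 rises and 0 falls. The split between rises and falls depends on the scaling. With libraries scaled to equal totals the median change of all genes moved to -0.91 on the log2 scale, from a median of -0.04 with the deposited size factors, and 1684 genes rose and 7321 fell. Without the second IL-10 library the count was 4531 genes, with 2517 rises and 2014 falls. How reads were counted, and whether strand was used, is not stated, so values of near-identical relatives (Gbp, Ifit, Saa, Ccl, H2 and Ifi200 genes) and of overlapping genes are uncertain.

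The other 11 of the 12 largest rises among genes without overlap between groups had varied roles. Il19 had 3098 and 3287 normalized reads in LPS with IL-10, against 0.815 and 0 in IL-10 alone, that is 6617 reads against 1 read, a ratio of 9300 with a 95% counting interval of 1670 to 367000. Lipg, endothelial lipase, had 45193 and 37966, against 19.6 and 17.1 (log2 change 11.07 ± 1.27, adjusted p = 5.9e-05). Edn1 had 5558 and 5746, against 2.45 and 2.35 (log2 change 10.70 ± 1.5, adjusted p = 0.00021). For each of these genes the libraries of IL-10 alone held few reads, and those of LPS with IL-10 held far more. Steap4 followed with 2438 and 2663, against 0 and 2.35 (log2 change 10.44 ± 1.10, adjusted p = 3.4e-05). Cp, the copper-carrying ferroxidase ceruloplasmin, had 19012 and 24979, against 20.4 and 17.1 (log2 change 10.12 ± 1.07). The list went on with the integrin subunit Itgb8 (1494 and 2299, against 0.815 and 0.588), the self-ligand receptor Slamf1 (2715 and 2992, against 2.45 and 1.18), Ifi205 (39586 and 44213, against 43.2 and 46.5), the chemokines Ccl5 and Cxcl11, and the GTPase Gbp2b (50571 and 52909, against 60.3 and 63.0).

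**Figure D1:**
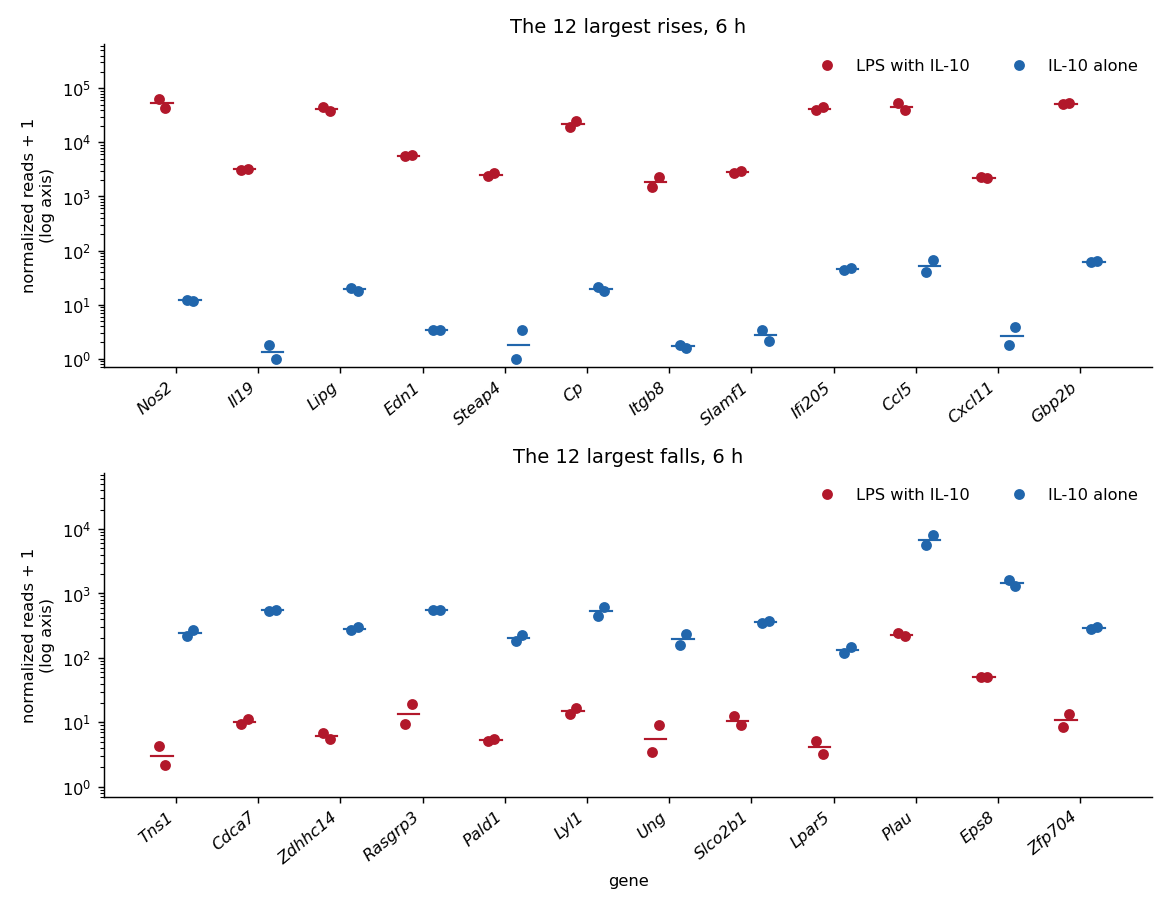
Normalized reads plus 1 (log axis) in each library of LPS with IL-10 (2 libraries, drawn first) and IL-10 alone (2 libraries) for the 12 largest rises and the 12 largest falls, with bars at the geometric mean of each group. The 24 genes were chosen to have no overlap between the groups, so their separation is not a result. The rises span a wider range, up to a log2 change of 12.10 for Nos2, than the falls, down to -6.33 for Tns1.

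The 12 largest falls were in genes of varied roles. Tns1, which encodes the focal adhesion protein tensin-1, fell to 3.33 and 1.14 normalized reads in LPS with IL-10, against 219 and 271 in IL-10 alone (log2 change -6.33 ± 0.50, limma adjusted p = 6.2e-06). Cdca7, a cell cycle gene that MYC and E2F are known to induce, had 8.33 and 10.2, against 538 and 558 (log2 change -5.75 ± 0.75, adjusted p = 0.00014). Zdhhc14, a palmitoyltransferase gene, had 5.83 and 4.54, against 267 and 300.1. Rasgrp3, an activator of RAS proteins, had 8.33 and 18.2, against 561 and 559.6. These 4 genes were well measured without LPS and at few reads with it. Pald1, the blood-lineage transcription factor gene Lyl1, the uracil-DNA glycosylase gene Ung, the organic anion carrier gene Slco2b1, the lysophosphatidic acid receptor gene Lpar5, Eps8 and Zfp704 fell by 4.75 to 5.23 on the log2 scale. Plau, urokinase, which turns plasminogen into plasmin, fell to 239 and 217, against 5563 and 8047 (log2 change -4.87 ± 0.50, adjusted p = 2.8e-05).

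Interferon-induced genes rose throughout. All 36 tested antiviral genes and all 15 interferon-inducible GTPases rose, with median log2 changes of 5.31 and 6.05, beside -0.04 for all genes, and at equal library totals the same counts held with medians of 4.42 and 5.16. Rsad2, whose product viperin blocks viral replication, had 304929 and 310916 normalized reads in LPS with IL-10, against 395 and 556 in IL-10 alone (log2 change 9.36 ± 0.87, limma adjusted p = 1.6e-05). Ifit1, which binds foreign RNA caps, had 51320 and 59594, against 267 and 270 (log2 change 7.68 ± 0.71, adjusted p = 1.5e-05). Isg15, a ubiquitin-like modifier, had 25497 and 13856, against 235 and 363, and the nucleic acid sensor gene Zbp1 had 8152 and 6699, against 199 and 177. In all of these, both libraries with LPS lay far above both libraries of IL-10 alone. Among the GTPases, Gbp7 had 17953 and 21425, against 314 and 277, and Igtp had 11372 and 11066, against 353 and 357. Of 14 interferon signalling factors 12 rose and 0 fell (median 1.47), and at equal library totals 10 rose and 1 fell. Irf7, which amplifies type I interferon, had 24305 and 17813, against 405 and 483 (log2 change 5.55 ± 0.38, adjusted p = 4.1e-06), and Stat2 had 22983 and 20174, against 1744 and 1624 (log2 change 3.68 ± 0.20, adjusted p = 2.4e-06). Reads of the interferon beta gene were scarce at 6 h, and its part in these rises was not tested. Ifnb1, interferon beta, had 7.50 and 20.4, against 0 and 0, that is 27 reads against 0, at least 12.6-fold higher when set against 3 reads over the IL-10 group.

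Inflammatory cytokines rose, and the best known of them stayed well below their values in LPS alone. Of 21 tested, 15 rose and 0 fell (median log2 change 3.93), and 17 rose when the 12 h libraries, whose replicates differ widely for these genes, were left out of the fit. Of all 12817 genes, 3351 rose in that fit. Tnf had 12079 and 10530 normalized reads in LPS with IL-10, against 445 and 832 in IL-10 alone, and 258725 and 258132 in LPS alone, against 1568 and 1454 in the control. Its log2 change with IL-10 was 4.21 ± 1.13 (limma adjusted p = 0.0096), and without the first IL-10 library this rise did not pass. Il6 had 1604 and 2100, against 8.97 and 9.42 in IL-10 alone (log2 change 7.49 ± 1.53, adjusted p = 0.0022), beside 100629 and 138443 in LPS alone. Il12b, the p40 subunit of IL-12 and IL-23, had 1264 and 1355, against 4.89 and 9.42 (log2 change 7.39 ± 1.36, adjusted p = 0.0012), beside 55526 and 65107 in LPS alone. Il1b had 12327 and 12836, against 57.1 and 71.8 (log2 change 7.60 ± 1.41, adjusted p = 0.0012), beside 317701 and 350052 in LPS alone. For these 4 genes the ranges of the groups did not overlap, and LPS with IL-10 sat between IL-10 alone and LPS alone.

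Some cytokines were all but silent with IL-10. Il12a, the p35 subunit of IL-12, had 2.5 and 0 normalized reads in LPS with IL-10, against 0 and 0 in IL-10 alone, beside 403 and 436 in LPS alone, and its change with IL-10 did not pass the test (limma adjusted p = 0.67). Il23a, the p19 subunit of IL-23, had 0.833 and 0, against 0.815 and 0, beside 21.7 and 26.1 in LPS alone. Csf2, which encodes the growth factor GM-CSF, had 1.67 and 2.27, against 0 and 0, beside 1171 and 1127 in LPS alone. The chemokine gene Ccl17 had 3.33 and 2.27, against 0 and 0, beside 1041 and 936.5 in LPS alone. At these few reads no rise with IL-10 was detectable in the fit over all groups, and without the 12 h libraries Csf2 and Ccl17 passed with adjusted p = 0.041 and 0.0038. Other cytokines rose strongly. Il27, a cytokine subunit of the IL-12 family, had 2339 and 1034, against 13 and 7.06, and Tnfsf15 had 1559 and 1658, against 7.34 and 5.30. Csf3, the granulocyte growth factor, had 424 and 371, against 0.815 and 1.18.

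Of 20 chemokine genes 15 rose and 0 fell (median log2 change 3.92), and at equal library totals 14 rose and 1 fell. Cxcl10, which draws T cells through CXCR3, had 68700 and 47751 normalized reads in LPS with IL-10, against 104 and 195 in IL-10 alone (log2 change 8.64 ± 0.90, limma adjusted p = 3.2e-05). Ccl5 had 52754 and 39548, against 39.9 and 64.7 (log2 change 9.78 ± 0.81, adjusted p = 8.2e-06). Ccl2, which recruits monocytes, had 27079 and 29612, against 6092 and 6836 (log2 change 2.13 ± 0.41, adjusted p = 0.0016). The neutrophil-attracting chemokine Cxcl1 reached only 218 and 195, against 3.26 and 5.88, beside 5631 and 6944 in LPS alone, while Cxcl2 had 2878 and 3177, against 104 and 266. Both passed the test with IL-10 (adjusted p = 0.0072 and 0.0075), and Cxcl2 did not pass without the first IL-10 library.

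**Figure D2:**
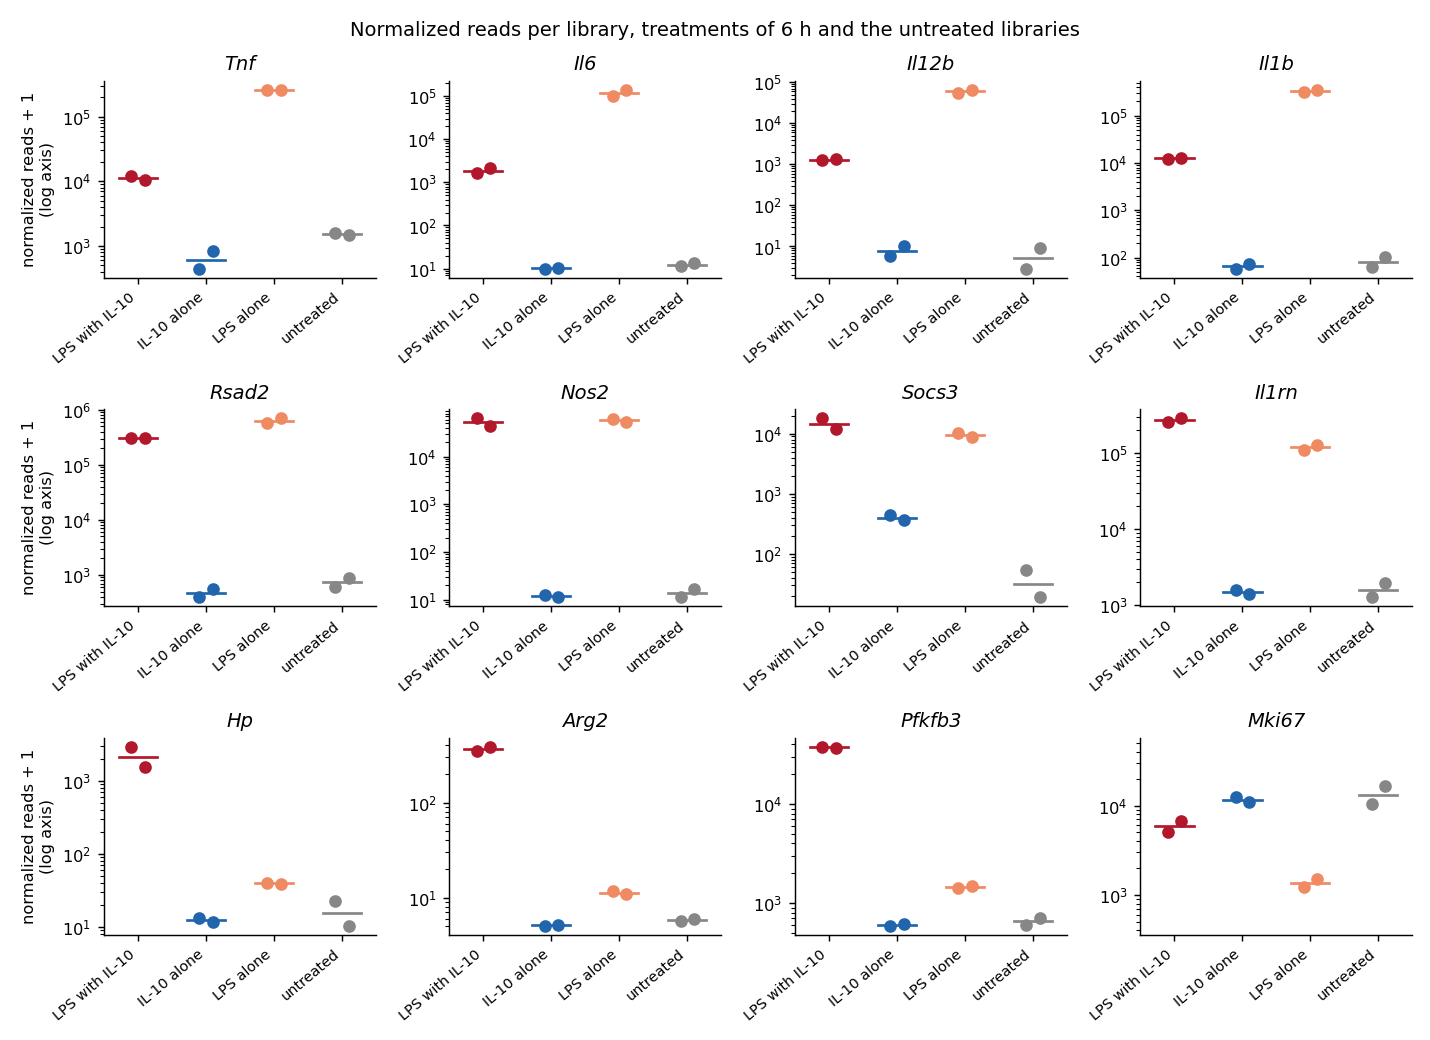
Normalized reads plus 1 (log axis) of 12 genes in each library at 6 h, in the order LPS with IL-10, IL-10 alone, LPS alone and untreated control, 2 libraries each. Tnf, Il6, Il12b and Il1b sit lower in LPS with IL-10 than in LPS alone, Rsad2 and Nos2 are high in both groups with LPS, and Hp, Arg2 and Pfkfb3 are highest in LPS with IL-10 among the 4 groups.

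Most genes of the IL-10 and STAT3 response rose. Of 28 genes of that list, 23 rose and 2 fell (median log2 change 2.5, and 19 and 4 at equal library totals), on top of the IL-10 that both groups received. Socs3, the inhibitor of gp130 signalling, had 17975 and 12128 normalized reads in LPS with IL-10, against 440.2 and 363 in IL-10 alone (log2 change 5.20 ± 0.40, limma adjusted p = 5.6e-06). Il1rn, the antagonist of the IL-1 receptor, had 260596 and 286056, against 1594 and 1400 (log2 change 7.51 ± 0.81, adjusted p = 4e-05), and both values exceeded the 110803 and 129239 of LPS alone. Tnip3, an A20-binding inhibitor of NF-kappa-B, had 98980 and 115104, against 2234 and 2244 (log2 change 5.57 ± 0.49, adjusted p = 1.2e-05), beside 17295 and 20333 in LPS alone. LPS raised Socs3 less with IL-10 than without it (log2 changes 5.20 and 8.22), and Stat3 also (1.97 and 3.37). Tnip3 went the other way (5.57 and 2.23). Each of these differences passed in the fit over all groups, with the call lost in 4, 6 and 7 of 30 alternative settings. Cd163, the haemoglobin scavenger receptor of the same list, fell to 29.2 and 22.7, against 235 and 235 (log2 change -3.14 ± 0.70, adjusted p = 0.0034). Socs1, the inhibitor of interferon receptors, had 161 and 112, against 4.89 and 4.12, beside 590 and 442 in LPS alone. The mannose receptor Mrc1 had 34483 and 46470, against 66471 and 53957, and did not pass (adjusted p = 0.087).

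Among 22 NF-kappa-B subunits and inhibitors 15 rose and 1 fell (median 1.38, with 9 and 4 at equal library totals). Nfkbia, the inhibitor IkB-alpha, had 19807 and 17157 normalized reads in LPS with IL-10, against 759 and 1079 in IL-10 alone, and Tnfaip3, the ubiquitin-editing enzyme A20, had 23368 and 21323, against 440.2 and 601. Their log2 changes were 4.35 ± 0.33 and 5.44 ± 0.49 (limma adjusted p = 5.4e-06 and 1.4e-05). Nfkbiz, a nuclear co-activator of secondary genes such as Il6, had 6721 and 7100, against 259 and 269, beside 41583 and 42467 in LPS alone. Of 12 mRNA decay factors 8 rose and 3 fell (5 and 4 at equal library totals). Zfp36, tristetraprolin, which shortens the life of Tnf mRNA, had 18773 and 19237, against 1470 and 1295 (log2 change 3.78 ± 0.22, adjusted p = 2.8e-06), and the endonuclease gene Zc3h12a had 2564 and 1355, against 103 and 127. Dusp1, the phosphatase that switches off p38 and JNK, had 7330 and 6158, against 403 and 690 (log2 change 3.67 ± 0.31, adjusted p = 8.8e-06), beside 2674 and 2558 in LPS alone. Of 12 MAP kinase phosphatases, however, 3 rose and 5 fell (3 and 6 at equal library totals). Irak3, a kinase-dead inhibitor of Toll-like receptor signalling, had 8441 and 9328, against 800 and 707, and Tlr4 itself had 1814 and 2810, against 3240 and 2711, a change that did not pass (adjusted p = 0.27).

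Acute-phase proteins were among the strongest rises. Of 10 genes 9 rose and 0 fell, with a median log2 change of 6.25 (5.68 at equal library totals). Saa3, a serum amyloid made by macrophages, had 275874 and 206492 normalized reads in LPS with IL-10, against 504 and 519.6 in IL-10 alone (log2 change 8.86 ± 0.70, limma adjusted p = 6.4e-06). Lcn2, which withholds bacterial siderophores, had 25255 and 18657, against 29.4 and 34.1 (log2 change 9.38 ± 1.06, adjusted p = 5.2e-05). Hp, haptoglobin, which binds free haemoglobin, had 2888 and 1534, against 12.2 and 10.6 (log2 change 7.41 ± 0.55, adjusted p = 4.9e-06). Values in LPS alone were lower for all 3 genes, at 52766 and 55775 for Saa3, 2628 and 2338 for Lcn2, and 39.0 and 37.5 for Hp. The log2 changes by LPS without IL-10 were 8.30, 5.81 and 1.37. In the fit over all groups the difference between the LPS effects passed for Hp and not for Saa3 or Lcn2. Without the 12 h libraries it was 0.56 for Saa3 and 3.57 for Lcn2 (limma adjusted p = 0.2 and 0.0064). Saa1 held 477 reads against 0, at least 223-fold higher, and S100a8 had 2118 and 2597, against 118 and 149. Iron genes moved in both directions, with 8 rises and 3 falls among 15 genes, or 7 and 6 at equal library totals. Slc40a1, ferroportin, the exporter of cellular iron, fell to 157 and 209, against 4324 and 4574 (log2 change -4.61 ± 0.27, adjusted p = 2.8e-06). Slc11a2, the importer DMT1, rose to 9330 and 7555, against 1466 and 1389, and the ferritin heavy chain gene Fth1 had 344590 and 290345, against 104852 and 110809 (log2 change 1.55 ± 0.27, adjusted p = 0.00079).

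Arginine use, prostanoid synthesis and matrix turnover changed at named enzymes. Of 11 nitric oxide and arginine genes 6 rose and 2 fell (6 and 3 at equal library totals). Besides Nos2, the arginine transporter gene Slc7a2 had 6146 and 7581 normalized reads in LPS with IL-10, against 55.4 and 66.5 in IL-10 alone (log2 change 6.79 ± 0.71, limma adjusted p = 3.3e-05). Arg2, the mitochondrial arginase, had 349 and 384, against 4.08 and 4.12 (log2 change 6.17 ± 0.41, adjusted p = 3.6e-06), and Arg1 had 39.98 and 42.0, against 4.08 and 3.53 (adjusted p = 0.0032). Ptgs2, the inducible cyclooxygenase, had 40471 and 54296, against 88.0 and 77.7 (log2 change 9.13 ± 1.10, adjusted p = 7.9e-05), and Ptges, which makes prostaglandin E2, had 14727 and 12911, against 65.2 and 87.1. Irg1, which makes itaconate, had 153053 and 153211, against 355 and 628 (log2 change 8.34 ± 0.98, adjusted p = 6.6e-05). Of 20 genes of matrix and plasminogen turnover 13 rose and 3 fell (10 and 4 at equal library totals). The collagenase gene Mmp13 had 182871 and 241092, against 294 and 337 (log2 change 9.38 ± 1.10, adjusted p = 6.6e-05).

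Antigen presentation changed by class. Of 21 genes of MHC class I and peptide loading 19 rose and 0 fell (median log2 change 1.88, and 13 and 0 at equal library totals). B2m, the shared light chain, had 96363 and 117580 normalized reads in LPS with IL-10, against 33012 and 32470 in IL-10 alone (log2 change 1.70 ± 0.28, limma adjusted p = 0.00058), and quantile normalization took this call away. Nlrc5, the transactivator of class I genes, had 9098 and 8944, against 820.1 and 828.5 (log2 change 3.45 ± 0.25, adjusted p = 4.7e-06). Of 9 class II genes 0 rose and 0 fell in the limma fit, with 1 at an unadjusted p under 0.05, 0 calls by DESeq2, 2 falls by edgeR, 4 falls at equal library totals and 2 rises with quantile normalization. Their levels are low, with H2-Aa at 129 and 126, against 94.6 and 94.7 (adjusted p = 0.13), and Ciita, the transactivator of class II, at 6.66 and 11.4, against 3.26 and 6.47 (adjusted p = 0.23). Among 18 co-stimulatory and checkpoint genes 12 rose and 4 fell (9 and 6 at equal library totals). Cd274, the inhibitory ligand PD-L1, had 43814 and 43560, against 385 and 424 (log2 change 6.75 ± 0.49, adjusted p = 4.6e-06). Cd40 had 15148 and 10864, against 260.0 and 275, beside 59076 and 56793 in LPS alone, and Cd86 had 1459 and 1732, against 329 and 311.

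Receptors and identity genes of macrophages changed in both directions, as did all tested genes (28.2% rose and 26.3% fell). Among 23 Fc, scavenger and efferocytosis receptors 11 rose and 6 fell, and at equal library totals 9 rose and 10 fell. Fcgr4, an activating receptor for IgG, had 17718 and 15825 normalized reads in LPS with IL-10, against 361 and 292 in IL-10 alone (log2 change 5.68 ± 0.31, limma adjusted p = 2.4e-06), and Fcgr2b, the inhibitory one, had 63357 and 73983, against 4197 and 3431 (log2 change 4.17 ± 0.32, adjusted p = 5.6e-06). Csf1r, the receptor for CSF1, fell to 10571 and 8055, against 16946 and 19718 (log2 change -0.99 ± 0.22, adjusted p = 0.0031), and Trem2, a lipid-sensing receptor, fell to 2142 and 1333, against 5167 and 6073. Of 14 C-type lectin receptors 10 rose and 1 fell (6 and 2 at equal library totals), with Clec4e, the sensor of mycobacterial cord factor, at 82925 and 112760, against 6574 and 6057. Among 14 chemokine and chemoattractant receptors 6 rose and 4 fell (5 and 5 at equal library totals). The formyl peptide receptors Fpr1 and Fpr2 rose (log2 changes 7.27 ± 0.68 and 6.73 ± 0.63), while Cxcr4 fell to 60.8 and 46.5, against 1087 and 1115 (log2 change -4.35 ± 0.29, adjusted p = 3.6e-06). Of 20 macrophage identity factors 8 rose and 5 fell, and at equal library totals 5 rose and 7 fell. Cebpa, a myeloid lineage factor, fell to 15 and 19.3, against 320 and 364, while Cebpb rose to 1873 and 1746, against 140 and 141 (log2 changes -4.25 ± 0.51 and 3.67 ± 0.22, adjusted p = 7.7e-05 and 2.8e-06).

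Of 19 inflammasome and cell death effectors 13 rose and 2 fell (12 and 5 at equal library totals). Casp4, the sensor of cytosolic LPS, had 13968 and 17267 normalized reads in LPS with IL-10, against 902 and 734 in IL-10 alone, and Mlkl, the executor of necroptosis, had 5672 and 6081, against 709 and 648. Cflar, the inhibitor of caspase-8, had 24707 and 26599, against 1877 and 2023 (log2 change 3.72 ± 0.27, limma adjusted p = 4.7e-06). Bcl2 fell to 57.5 and 69.2, against 564 and 547 (log2 change -3.12 ± 0.27, adjusted p = 9.9e-06).

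LPS lowered genes of DNA replication with IL-10 present, and genes of mitosis less surely. Of 34 S-phase genes 0 rose and 26 fell (median log2 change -1.71), and with every scaling tried 26 to 34 fell. Tk1, thymidine kinase, had 257 and 128 normalized reads in LPS with IL-10, against 1315 and 1788 in IL-10 alone (log2 change -3.07 ± 0.52, limma adjusted p = 0.00075), and Mcm5, a subunit of the replicative helicase, had 1143 and 692, against 2816 and 3748. Of 30 mitotic genes 12 fell and 0 rose, 22 fell without the 12 h libraries, and 26 fell at equal library totals. Of all 12817 genes, 2993 fell without the 12 h libraries and 7321 at equal library totals. Mki67, the Ki-67 proliferation marker, had 5043 and 6802, against 12448 and 10962, and the topoisomerase gene Top2a had 4924 and 6500, against 10800 and 9900. Both groups were separate for each gene, though neither change passed in the fit over all groups (adjusted p = 0.14 and 0.21), and both passed without the 12 h libraries (adjusted p = 0.02 and 0.028). The levels in LPS alone were lower, at 1227 and 1522 for Mki67 and 1511 and 1860 for Top2a. Ccnd1, the G1 cyclin D1, fell to 945 and 860.1, against 6749 and 8063 (log2 change -3.03 ± 0.32, adjusted p = 3.3e-05). Mxd1, an antagonist of MYC, rose to 13744 and 12206, against 272 and 262 (log2 change 5.59 ± 0.29, adjusted p = 2.4e-06), while Myc fell to 221 and 224, against 449 and 631. Smad3, which carries TGF-beta signals, fell to 40.8 and 32.9, against 342 and 341 (log2 change -3.18 ± 0.28, adjusted p = 1.3e-05). The 16 genes of that pathway gave 5 rises and 7 falls, or 2 and 8 at equal library totals.

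Metabolic groups gave counts that turned with the scaling. Of 26 glycolysis and HIF target genes 11 rose and 2 fell with the deposited size factors, and 6 rose and 13 fell at equal library totals. Of 48 respiratory chain genes 5 rose and 5 fell, against 1 and 41, of 22 genes of the tricarboxylic acid cycle and itaconate synthesis 5 and 4, against 2 and 19, and of 42 ribosomal protein genes 2 and 8, against 0 and 40. Lysosomal genes gave 10 rises and 7 falls of 32, against 2 and 20, and cholesterol synthesis genes 9 and 7 of 23, against 1 and 14. The calls that stand apart from these shifts are large. Pfkfb3, which makes the activator of glycolytic phosphofructokinase, had 37808 and 36946 normalized reads in LPS with IL-10, against 589 and 609.6 in IL-10 alone (log2 change 5.96 ± 0.41, limma adjusted p = 4.1e-06). Hif1a had 16744 and 23870, against 3067 and 2561 (log2 change 2.83 ± 0.29, adjusted p = 2.7e-05). Dhcr7, which completes cholesterol, fell to 129 and 126, against 999 and 891, and Fasn, fatty acid synthase, fell to 499.7 and 336, against 1960 and 2276 (log2 changes -2.88 ± 0.30 and -2.36 ± 0.45). Gclc, the rate-limiting enzyme of glutathione synthesis, fell to 123 and 140, against 824 and 887, while Sod2, mitochondrial superoxide dismutase, rose to 42679 and 46462, against 2523 and 2661.

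**Figure D3:**
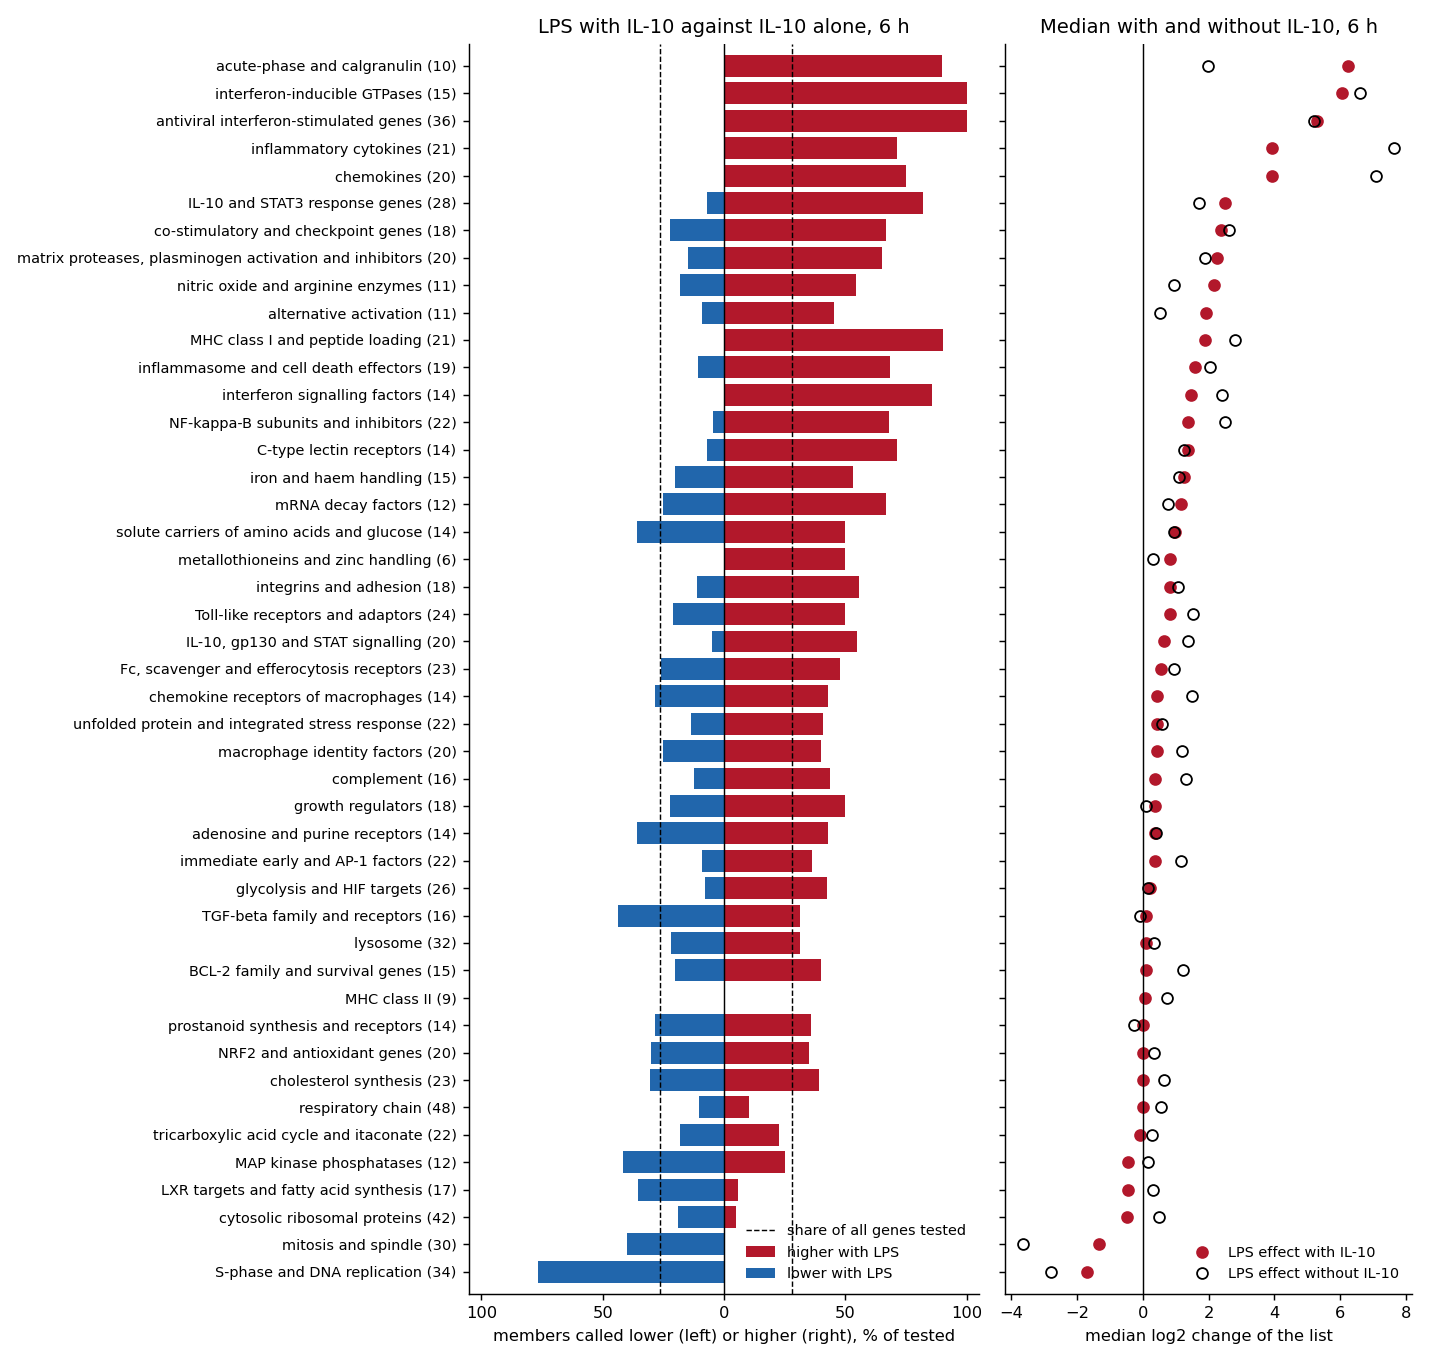
Left, the percentage of tested genes in each list (number in brackets) that rose (red, to the right) or fell (blue, to the left) in LPS with IL-10 against IL-10 alone at 6 h (limma adjusted p under 0.05), with dashed lines at the shares of all tested genes (28.2% and 26.3%). Right, the median log2 change of each list by LPS with IL-10 (filled) and without IL-10 (open). All 36 antiviral genes and all 15 interferon-inducible GTPases rose and 26 of 34 S-phase genes fell, while the balance of respiratory chain, ribosomal, lysosomal, glycolytic and cholesterol genes turns to falls when libraries are scaled to equal totals.

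The LPS effect with IL-10 was then set beside the LPS effect without it, which uses 4 other libraries. LPS alone changed 7653 genes against the untreated control (59.7%), with 3644 rises (28.4%) and 4009 falls (31.3%), or 1641 and 8175 at equal library totals. The rises shared 2609 genes, 72.3% of those with IL-10 and 71.6% of those without it, and the falls shared 2413 genes, 71.5% of those with IL-10 and 60.2% of those without it. Of the 631 genes that rose at least 8-fold with IL-10, 94.1% also rose without it, and of the 815 that did so without IL-10, 91.8% also rose with it. The difference between both effects, tested as an interaction, passed for 861 genes (6.72%), 571 with a higher change under IL-10 (4.46%) and 290 with a lower one (2.26%), or 937 and 183 at equal library totals. This count is unsteady. It ran from 148 without the second IL-10 library at 6 h to 4220 without the first control library, and was 174 without the first IL-10 library, 151 without the second library of LPS with IL-10, 200 and 367 without either library of LPS alone, 328 without the second control library, 430 and 433 without either 12 h library of IL-10, and 1317 and 1326 without either 12 h library of LPS. Of the 571 positive differences, 263 were genes that fell without IL-10 and did not pass with it, and 96 fell in both. Of the 290 negative differences, 115 rose without IL-10 and did not pass with it, and 101 rose in both.

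**Figure D4:**
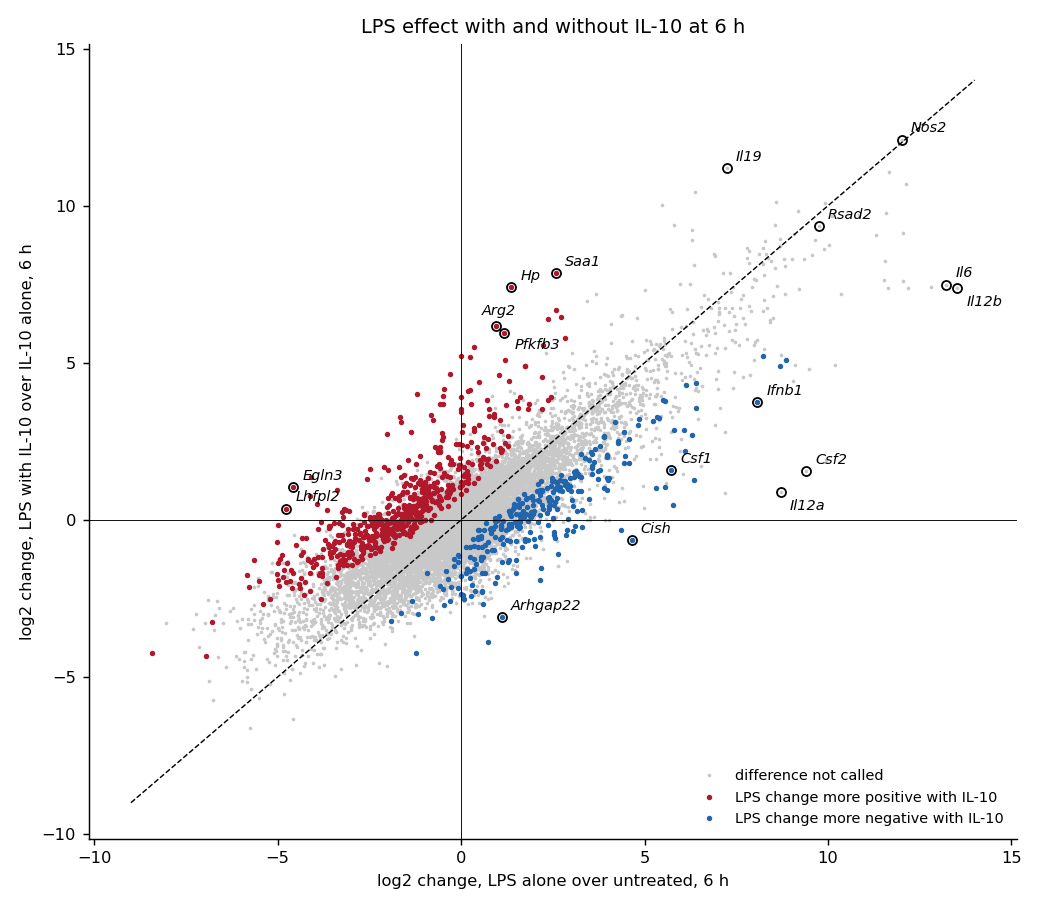
Log2 change by LPS at 6 h with IL-10 (vertical) against the change without IL-10 (horizontal) for 12817 genes, with the dashed line at equal changes. Red points are the 571 genes whose change is higher with IL-10 and blue points the 290 whose change is lower (adjusted p under 0.05 for the difference).

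Among genes that passed, the largest positive differences were in those that LPS raised mainly with IL-10, or lowered only without IL-10 by test. Hp differed by 6.04 ± 0.78 on the log2 scale (limma adjusted p = 0.0032), with the values given above and 21.5 and 9.30 normalized reads in the control. Arg2 differed by 5.21 ± 0.58 (adjusted p = 0.0016), with 10.8 and 9.79 in LPS alone, against 4.68 and 4.96 in the control. Saa1 differed by 5.28 ± 1.06 (adjusted p = 0.019) and Pfkfb3 by 4.80 ± 0.57 (adjusted p = 0.0023), the second with 1433 and 1485 in LPS alone, against 601 and 705 in the control. Spata13, which encodes an exchange factor for small GTPases, had 3535 and 3378 in LPS with IL-10, against 122 and 154 in IL-10 alone, and 174 and 166 in LPS alone, against 239 and 182 in the control (difference 4.94 ± 0.54, adjusted p = 0.0014). A different pattern held for Lhfpl2, a tetraspan membrane protein gene. It had 3399 and 3645 in LPS with IL-10, against 2858 and 2636 in IL-10 alone, while LPS alone lowered it to 93.2 and 99.5, against 2640 and 2646 in the control (difference 5.12 ± 0.29, adjusted p = 3e-05). Egln3, a HIF prolyl hydroxylase, moved in opposite directions. It rose with IL-10 to 411 and 612, against 216 and 274 in IL-10 alone (log2 change 1.04), a call lost in 4 alternative settings. It fell without IL-10 to 15.2 and 18 in LPS alone, against 342 and 505 in the control (difference 5.61 ± 0.48, adjusted p = 0.00035). The zinc finger gene Zfp618 had 225 and 191, against 92.1 and 67.7 in IL-10 alone, and 0 and 3.26 in LPS alone, against 36.5 and 31.6 in the control (difference 5.46 ± 0.91, adjusted p = 0.0087). The call was lost in 7 of the 30 alternative settings for Saa1 (leaving out either 6 h library of IL-10, the second library of LPS with IL-10, the first of LPS alone or the second control library, edgeR, and library weights) and in 1 for Zfp618 (leaving out the second IL-10 library).

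Among the glycolysis and HIF targets 9 of 26 differed upward and 2 downward, beside 4.46% and 2.26% of all genes. At equal library totals 937 and 183 of all genes did so. Calls of the difference for Ndrg1, Bnip3 and Vegfa held in all 30 alternative settings. Those for Hif1a and Hk2 were lost in 11 and 4. Ndrg1, a hypoxia-induced gene, had 7457 and 7604 normalized reads in LPS with IL-10, against 1921 and 1436 in IL-10 alone, and 614 and 587 in LPS alone, against 825 and 983 in the control (difference 2.76 ± 0.32, limma adjusted p = 0.002). Bnip3, a mitophagy receptor, had 5681 and 8449, against 1171 and 1182 in IL-10 alone, and 1145 and 1243 in LPS alone, against 1250 and 2357 in the control (difference 3.08 ± 0.41, adjusted p = 0.0032). Vegfa, the angiogenic factor, had 361 and 301, against 341 and 468 in IL-10 alone, whereas LPS alone lowered it to 52.0 and 66.9, against 633 and 407 in the control (difference 2.81 ± 0.46, adjusted p = 0.0078). The receptor chains of the IL-6 family showed the same kind of pattern. Il6ra had 657 and 579.9, against 840 and 866 in IL-10 alone, and 65.1 and 70.2 in LPS alone, against 831 and 588 in the control. Il6st, which encodes gp130, had 1617 and 1858, against 2270 and 2006 in IL-10 alone, and 295 and 305 in LPS alone, against 1477 and 1660 in the control. The differences were 2.89 ± 0.45 and 2.08 ± 0.33 (adjusted p = 0.0069 for each). Adora3, an adenosine receptor gene, rose with IL-10 to 1094 and 1084, against 72.6 and 54.1 in IL-10 alone, and had 30.4 and 22.8 in LPS alone, against 25.3 and 21.1 in the control (difference 3.91 ± 0.45, adjusted p = 0.0019).

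Among genes that passed, the largest negative differences were in those that LPS raised less with IL-10, or raised only without it by test. Some cytokine and chemokine genes had larger estimates that did not pass in the fit over all groups and are given below. Cish, a STAT5-induced inhibitor of cytokine receptors, had 6.66 and 3.40 normalized reads in LPS with IL-10, against 7.34 and 8.83 in IL-10 alone, and 191 and 170 in LPS alone, against 5.62 and 6.82 in the control (difference -5.29 ± 0.78, limma adjusted p = 0.0054). Csf1 had 484 and 342, against 129 and 141 in IL-10 alone, and 8860 and 8112 in LPS alone, against 171 and 149 in the control (difference -4.13 ± 0.98, adjusted p = 0.035). Il12rb1, a receptor chain for IL-12 and IL-23, had 29.2 and 11.4, against 8.97 and 8.24 in IL-10 alone, and 152 and 103 in LPS alone, against 1.87 and 2.48 in the control (difference -4.31 ± 0.62, adjusted p = 0.005). For Csf1, the 2 libraries with LPS alone lay far above all others. Ifnb1 differed by -4.32 ± 1.10 (adjusted p = 0.043) and the chemokine gene Ccl8 by -3.81 ± 0.42 (adjusted p = 0.0016). The list closed with Bmp1 (-3.92), the GTPase regulator gene Arhgap22 (-4.21), which LPS lowered with IL-10 to 18.3 and 28.4, against 179 and 230, and Vmn2r90 (-5.07), a vomeronasal receptor gene with at most 113 reads in any library. Osm, a gp130 cytokine outside these 8, had 156 and 125, against 104 and 121 in IL-10 alone, and 1340 and 1253 in LPS alone, against 160 and 107 in the control (difference -2.98 ± 0.60, adjusted p = 0.019). Among these 9 genes, the call of the difference was lost in some of the 30 alternative settings for 5, namely in 17 for Vmn2r90, 16 for Ifnb1, 15 for Bmp1, 10 for Csf1 and 6 for Osm. Leaving out either 6 h library of IL-10 or either library of LPS alone ended each of these 5 calls.

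The classic inflammatory cytokines did not pass as differences in the fit over all groups, although the estimates were large. Il12b differed by -6.14 ± 1.93 (limma adjusted p = 0.078), Il6 by -5.73 ± 2.17 (adjusted p = 0.11), Il1b by -4.45 ± 1.99 (adjusted p = 0.16) and Tnf by -3.21 ± 1.60 (adjusted p = 0.2). Without the 12 h libraries the same differences had adjusted p = 0.0068, 0.001, 0.0026 and 0.0071. In that same fit Ccl17, Csf2, Il12a and Il1a differed by -8.04, -7.85, -7.81 and -5.41 (limma adjusted p = 0.0011, 0.0035, 0.005 and 0.02). They too did not pass in the fit over all groups. The spread pooled over all groups includes 12 h replicates that differ greatly for these genes. By that fit 13 of 21 cytokines and 15 of 20 chemokines had a lower change with IL-10, and 1 and 0 a higher one, against 3 and 3 lower and 1 and 0 higher in the fit over all groups. For the 36 antiviral genes and the 15 interferon-inducible GTPases 0 differences passed in the limma fit over all groups (11 and 0 at an unadjusted p under 0.05, 0 and 0 by edgeR, and 5 and 0, all lower, by DESeq2), and the median LPS effects were 5.31 and 6.05 with IL-10, beside 5.19 and 6.60 without it. A difference that did not pass does not show that both effects are alike. Rsad2, for which the difference was -0.40 ± 1.23, had 573115 and 694816 normalized reads in LPS alone, and Nos2, for which it was 0.10 ± 1.64, had 60438 and 54324. The S-phase and mitotic genes had median differences of 0.93 and 2.25, with 0 and 1 passing in the limma fit over all groups and 11 and 20 without the 12 h libraries. For the S-phase genes, 11 had an unadjusted p under 0.05, edgeR called 1 and DESeq2 6.

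At 3 h, in separately normalized libraries, LPS with IL-10 changed 6289 of 12338 genes against IL-10 alone (51%), with 3262 rises (26.4%) and 3027 falls (24.5%), or 1630 and 7037 at equal library totals. At 12 h it changed 5348 of 12817 (41.7%), with 2786 rises (21.7%) and 2562 falls (20%), or 1484 and 5691 at equal library totals, and 3214 without the second 12 h library of IL-10. All 36 antiviral genes rose at each time, with median log2 changes of 3.11 at 3 h, 5.31 at 6 h and 3.81 at 12 h. S-phase genes that fell numbered 17, 26 and 30 of 34 at 3, 6 and 12 h, and mitotic genes that fell 22, 12 and 30 of 30, with 2 rises at 3 h. At equal library totals 31, 34 and 33 S-phase genes and 29, 26 and 30 mitotic genes fell, and 35, 36 and 36 antiviral genes rose. Mki67 had 1289 and 1429 normalized reads in LPS with IL-10 at 12 h, against 10201 and 8527 in IL-10 alone. Cytokine levels at 12 h differed between replicates, with 87528 and 3275 for Tnf and 46554 and 508 for Il6 in the 2 libraries of LPS with IL-10, against 629.6 and 309 and 93.2 and 23 in IL-10 alone. Cholesterol synthesis genes gave 0 rises and 15 falls at 3 h, 9 and 7 at 6 h, and 1 and 8 at 12 h. At equal library totals these were 0 and 19, 1 and 14, and 0 and 16.

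The change at 12 h differed from that at 6 h for 293 genes (2.29%), 190 upward (1.48%) and 103 downward (0.804%). This count fell to 4 without the second 6 h library of IL-10 and to 34 without the second 6 h library of LPS with IL-10, was 27 without the first 12 h library of IL-10 and 37 without the first 6 h one, 102 and 108 without the second 12 h and the first 6 h library of LPS with IL-10, 151 and 150 without either 6 h library of LPS alone, 535 without either 12 h library of LPS alone, and 666 and 664 without either control library. Steap4 had the largest downward difference (-8.16 ± 1.55, limma adjusted p = 0.028), with 53.5 and 160 normalized reads in LPS with IL-10 at 12 h, against 85.6 and 3.28 in IL-10 alone, whose libraries overlap. Selp, the adhesion receptor P-selectin, had 1931 and 1768 at 6 h, against 30.2 and 18.2, and 222 and 442 at 12 h, against 112 and 53.9 (difference -4.24 ± 0.72, adjusted p = 0.018). Il2ra, the alpha chain of the IL-2 receptor, Epb41l4b and the caspase gene Casp12 also had smaller rises at 12 h (differences -3.75, -3.59 and -3.56). In the other direction, Tns1 had 86.6 and 129 in LPS with IL-10 at 12 h, against 397 and 435 in IL-10 alone (difference 4.37 ± 0.71, adjusted p = 0.014). Tmem86a had 27.5 and 23.8 at 6 h, against 394 and 418, and 431 and 682 at 12 h, against 548 and 581 (difference 3.88 ± 0.69, adjusted p = 0.022). At 6 h the log2 changes of Gprc5b, Zdhhc14 and Nav2 were -1.15, -5.53 and -4.73, and the fall of Gprc5b did not pass in 23 of 32 alternative settings. Their differences between 12 h and 6 h were 4.35, 4.20 and 3.72. Each of these 10 calls was lost in 3 (Gprc5b) to 14 (Zdhhc14) of 29 alternative settings, and all 10 without the second 6 h library of IL-10. Hmox1, haem oxygenase, had 17932 and 14156 at 6 h, against 12755 and 12385, which did not pass (adjusted p = 0.31), and 58116 and 100510 at 12 h, against 8675 and 10230 (log2 change 3.02 ± 0.27, adjusted p = 2.8e-05). Slc40a1 and Cxcr4 fell less at 12 h, with log2 changes of -1.62 ± 0.27 and -1.27 ± 0.29 at 12 h, beside -4.61 and -4.35 at 6 h (differences 2.98 ± 0.38 and 3.07 ± 0.40, adjusted p = 0.0064 and 0.0071, and 0.061 for each without the second 6 h library of IL-10).

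**Figure D5:**
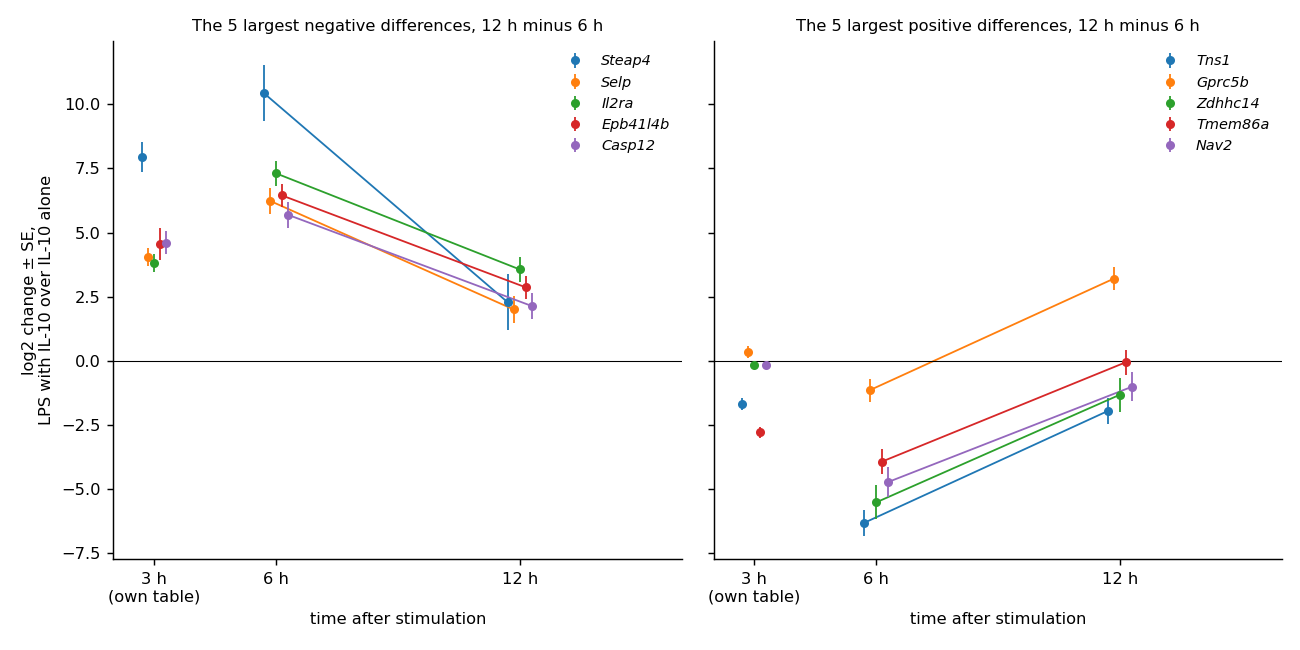
Log2 change ± SE of LPS with IL-10 against IL-10 alone at 3 h (own table and normalization), 6 h and 12 h for the 10 genes with the largest differences between 12 h and 6 h. Steap4, Selp, Il2ra, Epb41l4b and Casp12 are highest at 6 h, and Tns1, Gprc5b, Zdhhc14, Tmem86a and Nav2 are lowest at 6 h.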

How the data were processed

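RNA was sequenced from Il10-/- bone marrow-derived macrophages. TopHat2, DESeq2 and the GRCm38 build are listed, with no versions, per the submitters' processing notes, and the counting tool is not given in the sources used here. Each gene's deposited signal is its read count over a library-wide size factor set by the authors. The 2 tables were normalized apart and are never tested against each other. The reads behind the values were recovered (100% of values whole within 0.01) and served only for depth and for the count-based alternatives.

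Each comparison was tested, two-sided, with limma 3.58.1 in R 4.3.3 (empirical Bayes with a mean trend) on log2 values after adding a pseudocount of 1, fitted to all 7 groups of the 6 h and 12 h table (2 libraries per group, 7 residual degrees of freedom) or to the 3 h table, with Benjamini-Hochberg adjustment over all genes and a threshold of 0.05. Log2 changes, given ± SE, are on this scale, which understates changes of low genes. Folds against a group without reads are lower bounds that put 3 reads in that group, and those against 1 to 3 reads are ratios with an exact 95% interval. Both cover counting error only. Alternatives were edgeR 4.0.16 and DESeq2 1.42.0 on recovered reads, other scalings, filters and pseudocounts, library weights, a GC correction, replicate blocks, omission of each library, and omission of the 12 h libraries. Only the limma test of LPS with IL-10 against IL-10 alone at 6 h was also run on simulated data, and its outcome is not quoted here.

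The named genes include the 12 largest rises and 12 largest falls without overlap, averaging at least 100 normalized reads in the higher group. They also include the 8 largest differences each way between the LPS effect with and without IL-10, and the 5 largest each way between 12 h and 6 h. These were taken among genes that passed, with a mean of at least 100 normalized reads in the highest group. A panel of 36 genes and up to 4 genes of each of 45 lists with the smallest p complete them. Rsad2, Ifit1, Lcn2, Mmp13, Ccl3, Ccl17, Nfkbiz, Cd163, Trem2, Mcm5, Csf3, B2m, Osm, Top2a, Bnip3, Vegfa, Fth1, Ptx3, Il6st, Il6ra and Socs1 were added after their values were seen unless the rule also names them, and some genes the rule names are not reported here. The lists and members were chosen with earlier results of these data known. Coordinates are from GENCODE M21 (GRCm38), which holds 36345 of the identifiers, and promoter sequences from RefSeq (GRCm38.p6).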

Additional observations from a re-analysis of the deposited data

Results flagged for a closer look

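The 26 differences below stand out because the LPS effect in IL-10-treated cells differs, by a test of the difference itself (limma, adjusted p under 0.05), from the LPS effect in another setting. Differences are on the log2 scale. Of the 16 differences between the effects with and without IL-10, 10 kept their call in all 30 alternative settings, and 6 lost it in some, from 1 setting for Zfp618, 7 for Saa1 and 10 for Csf1 to 15 for Bmp1, 16 for Ifnb1 and 17 for Vmn2r90. All 10 differences between 12 h and 6 h lost their call in 3 to 14 of 29 settings (Gprc5b 3, Il2ra 4, Selp, Epb41l4b and Tns1 6 each, Tmem86a 7, Steap4 8, Casp12 12, Nav2 13, Zdhhc14 14).

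Between the LPS effect with IL-10 and without IL-10 at 6 h, the effect was higher with IL-10 for Hp (6.04), Egln3 (5.61), Zfp618 (5.46), Saa1 (5.28), Arg2 (5.21), Lhfpl2 (5.12), Spata13 (4.94) and Pfkfb3 (4.80). It was lower with IL-10 for Cish (-5.29), Vmn2r90 (-5.07), Ifnb1 (-4.32), Il12rb1 (-4.31), Arhgap22 (-4.21), Csf1 (-4.13), Bmp1 (-3.92) and Ccl8 (-3.81).

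Between 12 h and 6 h in the effect of LPS with IL-10 against IL-10 alone, the 12 h value was higher for Tns1 (4.37), Gprc5b (4.35), Zdhhc14 (4.20), Tmem86a (3.88) and Nav2 (3.72), and lower for Steap4 (-8.16), Selp (-4.24), Il2ra (-3.75), Epb41l4b (-3.59) and Casp12 (-3.56). For Steap4 the libraries of IL-10 alone at 12 h differ from each other, with 85.6 and 3.28 normalized reads. The part of that spread in its difference was not tested.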

How the results depend on the processing

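Genes changed by LPS with IL-10 at 6 h numbered 6985, 6283 to 9005 under the alternatives that keep all libraries of the comparison, and 4531 to 7789 with each library left out in turn. Of 228 named genes that passed, 206 passed under all 32 alternatives and 218 at equal library totals. Named genes were chosen for large changes or small p in these same libraries, or with earlier results known. Their counts therefore do not stand for all genes that passed. The log2 change turned negative at equal library totals for Fdft1 (-0.023), Rps24 (-0.17) and Uqcrc2 (-0.048) and with quantile normalization for Atf4 (-0.13) and Rps24 (-0.43). Omitting 1 library gave 6347 to 7673 genes for LPS alone against control, 148 to 4220 for the difference between the LPS effects, 3214 to 6146 at 12 h, 4 to 666 for the difference between 12 h and 6 h, and 4564 to 7789 at 3 h. The difference between the LPS effects (861 genes) gave 1715 with DESeq2, 2152 with GC trends removed, 1723 with the replicate block and GC trends removed, 538 with no filter and 418 with quantile normalization. The difference between 12 h and 6 h (293 genes) gave 975 with DESeq2, 967 with GC trends removed, 1204 with library weights, 909 with only the groups compared, 151 with no filter and 151 with the second 12 h libraries alone, and 159 with the replicate block (737 with GC trends removed). At 12 h, the second libraries alone gave 2859 genes, against 5348. The causes were not tested.

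The replicate numbers are not known to pair libraries. The replicate differences of LPS with IL-10 and of IL-10 alone correlated at -0.318 over genes, those of LPS with IL-10 at 0.703 with the control and 0.329 with LPS alone, the replicate block gave 6805 genes for the comparison at 6 h, 3526 higher and 3279 lower, and in the 4 compared libraries alone the block gave 6962, or 8996 with the numbers crossed. Other counts with the block were 654 for the difference between the LPS effects, 7520 for LPS alone, 5157 at 12 h and 6957 at 3 h. Replicate differences followed GC content (correlation 0.705 in LPS with IL-10, -0.488 in IL-10 alone, 0.547 in LPS alone and 0.804 in the control). With 2 libraries per group and a spread shared by all groups, changes of genes with few reads are the least certain.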
